A study of Homo sapiens with 12 samples.

Results

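The comparison was 2-CM against DMSO in cells transfected with poly I:C, and it rested on 4 of the 12 libraries of the series, chosen by their titles: 2 labelled 2-CM poly I:C and 2 labelled DMSO poly I:C. The features were the 15892 of 60609 annotated genes that reached 1 TPM (a length-corrected share of each library) in at least 2 of these 4 libraries, and 12455 of them were protein-coding. Every library was made from NS-SV-AC, an established cell line derived from human salivary gland that the labels call acinar. 2-CM is 2'-C-methyladenosine, an adenosine analogue, and DMSO, a common solvent, was its control. Per the labels, cells were treated for 24 h, then transfected in the presence of the same compound, and the dose of 2-CM was 20, in a unit read here as micromolar. Poly I:C, which mimics viral double-stranded RNA, acted for 14 h, and growth lasted 48 h. The control transfection that the labels call depc, with the same compounds and 2 libraries a group, was used for comparison, and the libraries given resveratrol (RES) were not compared. All 12 libraries entered the estimate of the spread between replicates, the principal components and the gene means from which deviations were taken. The labels do not say whether the replicates were separate cultures, so each p-value measures the spread between these libraries, which may be technical.

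As background, mitochondrial DNA is copied by a dedicated RNA polymerase into long RNAs, which are then cut at the tRNAs that punctuate them into rRNAs, tRNAs and the mRNAs of respiratory chain subunits. The transcript of the heavy strand starts just before MT-TF, the gene of tRNA phenylalanine, and runs through both rRNAs before the first mRNA. 2'-C-methyladenosine is known as an inhibitor of that polymerase, and long double-stranded RNA is sensed in the cytoplasm by MDA5 (IFIH1) and RIG-I (DDX58), which switch on interferon and NF-kB target genes.

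The 4 libraries held 3.146 to 4.606 gigabases of sequence on annotated transcripts. The label acinar had little support in the markers: of 11 salivary acinar markers none reached 1 TPM in any of the 4 libraries, and AQP5, AMY1A, STATH, PIP, MUC7 and PRB1 were listed at 0 in all of them. Of 9 epithelial markers 5 reached 1 TPM, with KRT8 at 629.8 to 1087 TPM and KRT18 at 468 to 645 TPM. The others were low: KRT17 was at 1.46 to 4.52 TPM, and KRT7, EPCAM, CDH1 and KRT19 were at 1.23 TPM or less. KRT5 and KRT14 were listed at 0 in all 4 libraries. Of 5 immune markers 2 reached 1 TPM, CD14 at 7.05 to 9.29 TPM and CD68 at 1.68 to 4.53 TPM. PTPRC and CD3E, of the same list, were at 0 in all 4 libraries. Of 8 mesenchymal markers 6 reached 1 TPM, with VIM at 401 to 819 TPM, while THY1 and COL1A2 did not. Of 5 myoepithelial markers 3 reached 1 TPM, with ACTA2 at 13.5 to 25.6 TPM, and of 4 endothelial markers 1 did. In RNA from whole cultures, fewer cells of a type and less RNA per cell cannot be told apart.

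The DMSO poly I:C libraries stood apart from each other. On the first principal component of the 12 libraries, which held 67% of the variance, they lay at 43.5 and -48.3, and the 2-CM poly I:C libraries at 94.1 and 80.1. The values of 3628 genes differed by 1 or more on the log2(TPM + 1) scale between the DMSO replicates, against 172 between the 2-CM replicates. The difference between compounds followed the GC content of the gene, with a Spearman correlation of -0.65 across the 15892 genes, which are not independent replicates. Of 10 classes of equal size, the class with the lowest GC content had a median log2 fold change of 1.30, and that with the highest 0.22. Against DMSO replicate 1 alone the same medians were 0.66 and 0.38, and against DMSO replicate 2 alone they were 1.95 and 0.07. The DMSO replicates themselves differed along GC content, with a Spearman correlation of -0.81 for replicate 1 minus replicate 2. A correction that removed a smooth curve of GC content from each library was therefore set beside the uncorrected values. It took the correlation to -0.02 and the median of all genes from 0.63 to 0.03. Using it for the counts of gene groups was chosen after the data were examined.

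**Figure D1:**
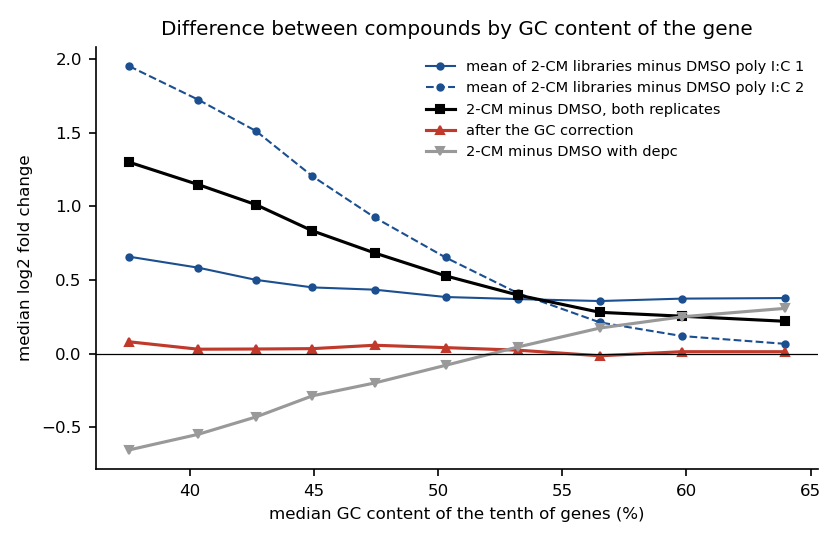
Median log2 fold change of 2-CM against DMSO (vertical axis) in 10 equal classes of genes ordered by GC content (horizontal axis, median GC in %), for both replicates, against each DMSO poly I:C library alone, after the GC correction and with depc. The black line falls from 1.30 to 0.22, and the line for DMSO replicate 2 alone falls further, from 1.95 to 0.07.

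In the fit of log2(TPM + 1), 18 genes were called at an adjusted p under 0.05, 11 higher and 7 lower with 2-CM, which is 0.0692% and 0.044% of the genes tested. Of the 18, 9 passed the 1 TPM filter only through the group in which they were higher, 7 through 2-CM and FHIT and SERPINA3 through DMSO, so their selection was tied to the difference tested. Their values are given as a description. With every gene above 0 TPM in any of the 12 libraries tested instead, all 9 were still called. For AL035461.3 that test had the same tie, since the gene was above 0 TPM only in the 2-CM poly I:C libraries. An unadjusted p under 0.05 was reached by 5693 genes. How many were higher and how many lower depended on the scaling. FPKM gave 9 higher and 6 lower, upper-quartile scaling 2 and 4, and median-of-ratios scaling 2 and 1, and the median of all genes was 0.34, 0.11 and -0.01 in turn. Directions of gene groups are therefore given relative to the median of all genes. The GC correction gave 574 calls of higher level (3.61%) and 684 of lower level (4.3%), and 11 of the 18 genes were called again in the same direction. Those 11 included FHIT, SERPINA3 and the small nucleolar RNA gene AC009065.9, whose selection by the filter was tied to the difference tested. Most of the GC-corrected calls rested on DMSO poly I:C replicate 2 and on both 2-CM libraries. Leaving out DMSO replicate 2 left 20 calls, leaving out 2-CM replicate 1 left 35 and leaving out 2-CM replicate 2 left 48, against 1345 without DMSO replicate 1. With the 4 libraries alone and no other group to estimate the spread, 0 genes were called by limma before the correction, with 5323 at an unadjusted p under 0.05, and 12 after it. Groups that did not overlap were common, with 72.3% of genes separated upward and 5.94% downward, so a count of separated genes is read against those shares. Part of them was fixed by the filter, which 1002 genes passed only through both 2-CM libraries and 49 only through both DMSO libraries.

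FN1, NES and COL1A1, which encode matrix and filament proteins, were the nuclear genes called higher with the highest levels. FN1 encodes fibronectin (chromosome 2, 215360440 to 215436073, minus strand). It measured 42.1 and 32.5 TPM with DMSO and 139.6 and 135 TPM with 2-CM. Both 2-CM libraries lay above both DMSO libraries, 3.69-fold by the means, and the log2 change was 1.87 (SE 0.24, adjusted p 0.0311), and after the GC correction FN1 was at 1.37 (SE 0.12, adjusted p 0.00331) and kept its call in all 12 settings around that correction. NES, the intermediate filament protein nestin (chromosome 1, 156668763 to 156677407, minus strand), rose from 11.3 and 12.7 TPM to 34.5 and 33.6 TPM, or on the log2 scale 1.43 (SE 0.19, adjusted p 0.0383). COL1A1, a chain of type I collagen (chromosome 17, 50183289 to 50201632, minus strand), rose from 15.9 and 17.7 TPM to 41.6 and 41.2 TPM, or 1.26 (SE 0.17, adjusted p 0.0383). With depc FN1, NES and COL1A1 stood higher in every library, and for FN1 and NES the groups overlapped. FN1 measured 259.6 and 214 TPM with DMSO and 266 and 213 TPM with 2-CM, and NES 57.0 and 52.95 against 61.2 and 50.4 TPM. COL1A1 measured 64.6 and 70.8 TPM against 84.9 and 100.3 TPM, with no overlap. The 2-CM poly I:C libraries thus lay between the DMSO poly I:C libraries and the depc libraries for FN1, NES and COL1A1. None of these calls held when any of the 4 libraries was left out of the uncorrected fit. Over 19 alternatives NES and COL1A1 lost their calls in 14 and FN1 in 12, and upper-quartile and median-of-ratios scaling, voom and a minimum of 5 TPM ended all 3. The log2 fold changes over these alternatives ran from 1.08 to 2.05 for FN1, 0.67 to 1.51 for NES and 0.49 to 1.40 for COL1A1.

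FHIT had the largest decrease of the genes called lower on the log2(TPM + 1) scale, a scale that understates the change of low genes such as SERPINA3. FHIT encodes a diadenosine triphosphate hydrolase and spans 1504 kb (chromosome 3, 59747277 to 61251459, minus strand). It measured 5.11 and 4.32 TPM with DMSO and 0.545 and 0.529 TPM with 2-CM, 8.77-fold lower by the means. The log2 fold change was -1.89 (SE 0.21, adjusted p 0.0217), and -2.45 after the GC correction (adjusted p 0.00409). These values are a description, since FHIT passed the 1 TPM filter only through the DMSO libraries. With depc, in separate libraries, it measured 5.24 and 5.70 TPM with DMSO and 0.583 and 1.08 TPM with 2-CM. FHIT is named although its mean with DMSO was just under the 5 TPM set for named genes. SERPINA3, a secreted protease inhibitor of the acute phase response, was at 1.63 and 1.95 TPM with DMSO poly I:C and at 0.104 TPM or less in the 2-CM poly I:C libraries and in the 4 depc libraries of both compounds. It was called lower at -1.41 on the log2 scale (SE 0.14, adjusted p 0.0188), as a description, since it was tested only because of the DMSO libraries. In the uncorrected fit FHIT and SERPINA3 lost their calls when any of the 4 libraries was left out. The GC-corrected call of FHIT was lost only without DMSO replicate 2 among its 11 settings, and that of SERPINA3 was lost without DMSO replicate 2, without either 2-CM library and with the 4 libraries alone. All these settings used the 1 TPM filter, so for both genes they describe the calls and do not test them apart from the filter.

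The other nuclear genes called higher were under 7 TPM in the 2-CM libraries, and some shared bases with a neighbour. AL035461.3, annotated as protein-coding (chromosome 20, 5950949 to 6039856, plus strand), was listed at 0 in both DMSO poly I:C libraries and in 10 of the 12 libraries, and at 5.56 and 5.89 TPM with 2-CM. It was therefore tested only because of the 2-CM poly I:C libraries, with the 1 TPM filter (adjusted p 8.9e-05) or without it (adjusted p 4.65e-05). Its exons overlap those of MCM8 on the same strand, which measured 15.6 and 5.43 TPM with DMSO and 27.6 and 19.3 TPM with 2-CM. AC009065.9, a small nucleolar RNA gene of 80 bases that overlaps SNORD60 on the same strand, went from 0.0852 and 0.0876 TPM to 6.52 and 6.92 TPM (adjusted p 0.00244, and 0.00764 without the filter), and was likewise tested only because of these libraries. Reads of such pairs can be divided either way between the 2 genes, so their values are uncertain. SNORA20, SNORD19C and AP000254.1 are also small nucleolar RNA genes and reached 2.88 to 5.37 TPM with 2-CM, and CFI (complement factor I) and PRAL, which overlaps XAF1 on the opposite strand, stayed under 2 TPM. After the GC correction CFI, PRAL, SNORA20, SNORD19C, AP000254.1, MT-TF and AL035461.3 lost their calls.

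**Figure D2:**
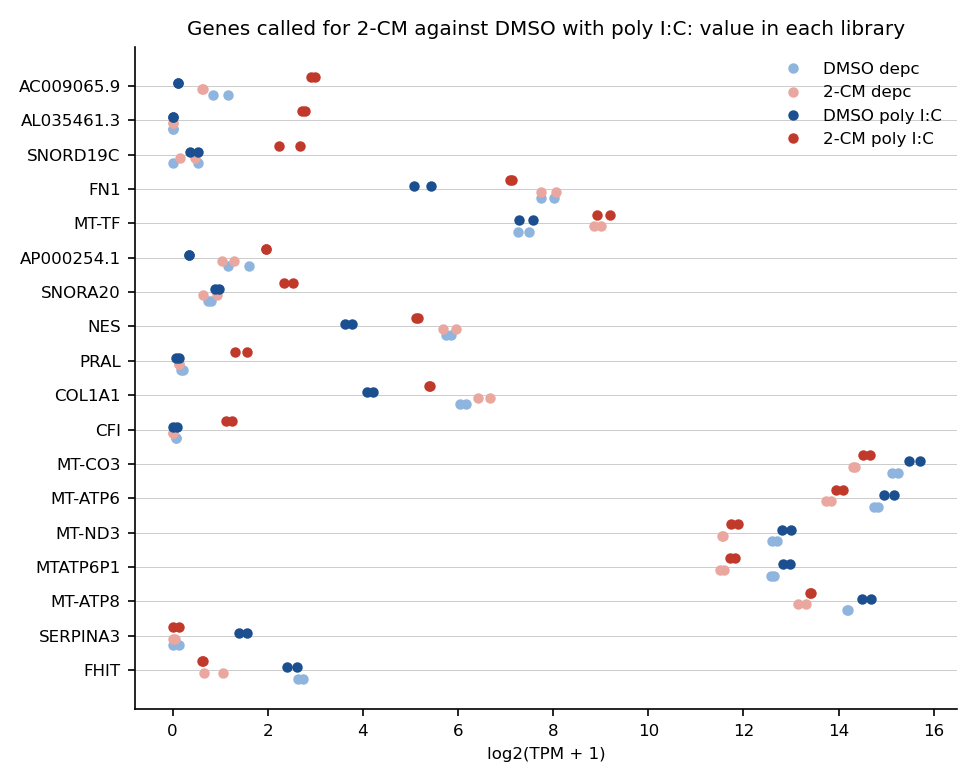
log2(TPM + 1) in each library (horizontal axis) of the 18 genes called for 2-CM against DMSO with poly I:C, with 2 points a group. For all 18 genes the 2 groups do not overlap, and for FHIT and the 5 mitochondrial sequences called lower the 2-CM libraries lie below the DMSO libraries with depc as well.

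Besides FHIT and SERPINA3, the genes called lower were mitochondrial: MT-ATP8 and MT-ATP6 of the ATP synthase, MT-CO3 of cytochrome c oxidase, MT-ND3 of complex I, and MTATP6P1, a nuclear copy of MT-ATP6. MT-ATP8 measured 23038 and 26395 TPM with DMSO and 10879 and 10942 TPM with 2-CM, a log2 change of -1.18 (SE 0.12, adjusted p 0.0194). MT-ND3 fell from 7160 and 8168 TPM to 3416 and 3810 TPM, or -1.08 (SE 0.14, adjusted p 0.0383). MT-CO3 fell from 46014 and 53406 TPM to 23437 and 25751 TPM, or -1.01 (SE 0.13, adjusted p 0.0311). In all 4 mRNAs both 2-CM libraries lay well below both DMSO libraries. These calls are not 5 independent ones, because MT-ATP8, MT-ATP6 and MTATP6P1 share sequence. The last bases of MT-ATP8 are the first of MT-ATP6, and the 46 shared bases are shown to make this plain (chrM:8527-8572, plus strand, hg38), with the start codon of MT-ATP6 in capitals.

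MT-ATP8 and MT-ATP6: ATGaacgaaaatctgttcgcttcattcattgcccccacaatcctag

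MTATP6P1 (chromosome 1) matched MT-ATP6 at 671 of 681 bases, or 98.5%, and its value moved with that of MT-ATP6, from 7336 and 8107 TPM to 3364 and 3612 TPM. A window of 60 bases is shown as an example, with its 3 differing bases in capitals, at chrM:8642-8701 for MT-ATP6 and chr1:633811-633870 for the copy, both on the plus strand of hg38. Counted from the first base of MT-ATP6, the differences are C129T, A151C and A175G.

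MT-ATP6: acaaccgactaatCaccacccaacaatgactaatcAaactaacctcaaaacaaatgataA
MTATP6P1: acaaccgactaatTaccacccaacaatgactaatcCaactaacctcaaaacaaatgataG

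Before the GC correction the direction of the rRNAs and mRNAs changed along the heavy-strand transcript, while the tRNAs between them did not follow that order. MT-TF, at the start, rose from 191 and 155 TPM to 585 and 485 TPM, or on the log2 scale 1.62 (SE 0.18, adjusted p 0.0217). Its 71 bases (chrM:577-647, plus strand, hg38) are shown because it was the mitochondrial gene called higher.

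MT-TF: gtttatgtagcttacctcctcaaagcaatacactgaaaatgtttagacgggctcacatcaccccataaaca

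As the next gene along, MT-RNR1, the rRNA of the small mitochondrial ribosomal subunit, stood at 1.30 on the log2 scale (adjusted p 0.0574), with 3512 and 2545 TPM against 7418 and 7261 TPM. MT-RNR2, the rRNA of the large subunit, was at 0.93 (adjusted p 0.0845). Both rRNAs were above DMSO in both libraries without reaching the threshold. MT-ND1, the first mRNA, was at 0.30, and MT-ND2 at -0.41. From MT-ND2 to MT-ND4 all 9 mRNAs lay lower in both 2-CM libraries, as did MT-CYB, the last, at -0.58. MT-ND5 at 0.18 and MT-ND6, which lies on the other strand, at 0.21 were the exceptions beside MT-ND1. All 3 were below the median of all genes, 0.63, and after the GC correction all 13 mRNAs were below 0, with MT-ND1 at -0.32, MT-ND5 at -0.62 and MT-ND6 at -0.76. The ratio of MT-ND3 to MT-RNR1 within a library was 2.04 and 3.21 with DMSO and 0.461 and 0.525 with 2-CM. That ratio does not depend on the scaling of the library, and the groups did not overlap. Of the 22 tRNA genes 9 were separated upward and 10 downward, against 72.3% and 5.94% of all genes, so fewer of them lay upward and more downward than among all genes. These counts take both strands. Of the genes separated downward, MT-TQ, MT-TA, MT-TN, MT-TC, MT-TS1 and MT-TP lie on the other strand, as does MT-TE of those separated upward. Some upward tRNAs lay among mRNAs that were lower: MT-TW at 0.27, MT-TK at 0.32, MT-TG at 0.67 and MT-TR at 0.31. Only MT-TG of these was above the median of all genes, 0.63. MT-TD, also among those mRNAs, was at -0.44. Short RNAs such as tRNAs are poorly captured by libraries made from poly(A) RNA. Whether these libraries were of that kind is not stated here, and the part of capture in the tRNA values was not tested. With depc the same ratio was 2.16 and 2.42 against 0.541 and 0.519, and MT-TF stood at 153 and 179 TPM against 515 and 466 TPM. With depc, before the correction, all 13 mRNAs, MT-ND1, MT-ND5 and MT-ND6 included, were lower in both 2-CM libraries. Such separation was common there, with 4353 of 12442 nuclear protein-coding genes separated downward. The trend with GC content ran the other way with depc (Spearman correlation 0.73). After the GC correction the median of the 13 mRNAs was -0.22 with depc, against -1.29 with poly I:C, and 0 were called with depc. MT-ND6, MT-ND5 and MT-CO2 were then at 0.16, 0.04 and 0.01 with depc, and the others were below 0.

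**Figure D3:**
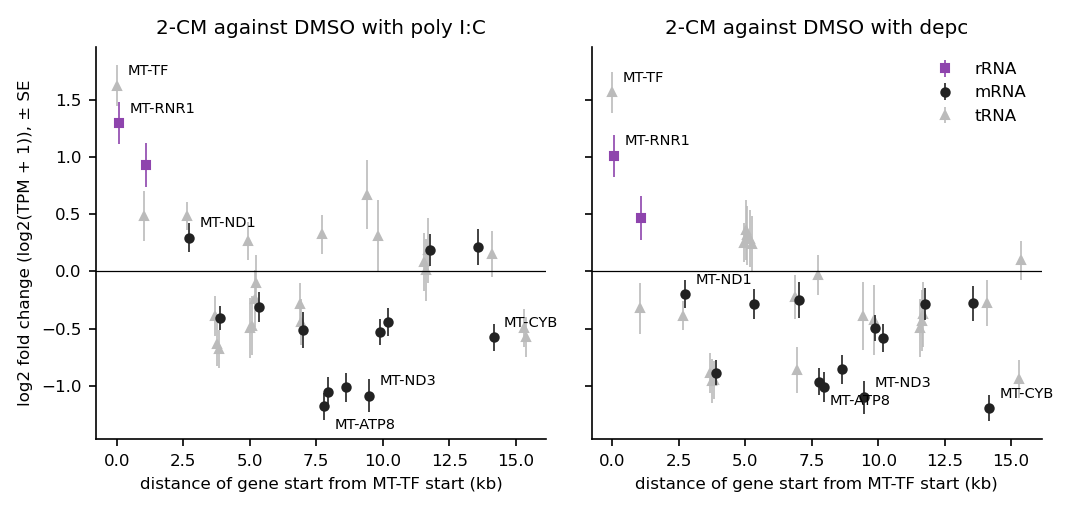
log2 fold change of 2-CM against DMSO with its SE (vertical axis) for the 37 mitochondrial genes by the distance of their first base from the start of MT-TF (horizontal axis, kb), with poly I:C and with depc. MT-TF and MT-RNR1 stand at 1.62 and 1.30 with poly I:C, while MT-ATP8 and MT-ND3 stand at -1.18 and -1.08.

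The 13 mitochondrial mRNAs together took 25.5% and 29.7% of TPM with DMSO poly I:C, and 17.2% and 18.2% with 2-CM poly I:C. The mean was 27.6% ± 2.996 (SD, n = 2) against 17.7% ± 0.658 (SD, n = 2), a difference of -9.90 percentage points, and the groups did not overlap (two-sided exact permutation test, p = 0.333, the smallest that 2 against 2 allows). With depc the share was 25.1% ± 0.821 (SD, n = 2) against 17.04% ± 0.217 (SD, n = 2). The 2 rRNAs took 1.88% ± 0.431 (SD, n = 2) of TPM with DMSO and 3.71% ± 0.0585 (SD, n = 2) with 2-CM. The median log2 fold change of the 13 mRNAs was -1.14 relative to all genes, between -1.42 and -0.61 over the alternatives. After the GC correction 5 of 13 were called lower, MT-CYB being the fifth, against 4.3% of all genes called lower. None of the 13 was called without DMSO replicate 2, without either 2-CM library or with the 4 libraries alone, and 1 was under median-of-ratios scaling or a pseudocount of 0.1, while all 13 stayed below 0 in each of these settings. The GC curve was drawn almost wholly from nuclear genes, and it moved MT-TF from 1.62 to 0.53 (adjusted p 0.406) and MT-RNR2 from 0.93 to -0.03.

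The lists of NF-kB targets and of immediate early genes lay above the median of all genes, as did several other lists. Before the GC correction none of the lists below, other than matrix and mitochondrial genes, held a called gene. The counts that follow are after the correction. Of 20 NF-kB targets tested, 8 were called higher and 0 lower, against 3.61% of all genes called higher. They were IL6, CXCL2, NFKBIZ, NFKB1, TNFAIP3, LIF, ICAM1 and NFKB2. TNFAIP3 (adjusted p 0.0469) lost its call under median-of-ratios scaling, with a pseudocount of 0.1 and with a correction for GC content and length. The neutrophil chemokine CXCL2 measured 7.65 and 4.06 TPM with DMSO and 21.9 and 19.1 TPM with 2-CM, GC-corrected log2 change 1.08 (SE 0.16, adjusted p 0.0130). The cytokine IL6 measured 6.05 and 3.10 TPM against 16.1 and 18.3 TPM, or 0.94 (SE 0.18, adjusted p 0.0212). ICAM1, an adhesion receptor for leukocytes, measured 20.3 and 23.6 TPM against 41.1 and 42.0 TPM, or 0.60 (SE 0.11, adjusted p 0.0212). The 2 largest log2 fold changes before the correction were CXCL8 at 2.00 and SOD2 at 1.79, and the 2 smallest were RELB at 0.43 and CCL5 at -0.08, none of them called in either fit. The list median relative to all genes was 0.43, and 0.37 to 0.95 over the alternatives. With depc the list also lay above the median of all genes (0.01), with a GC-corrected median of 0.36 against 0.54 with poly I:C, and no member was called there. IL6 measured 0.288 and 0.328 TPM with DMSO depc and 0.97 and 0.889 TPM with 2-CM depc, and its GC-corrected log2 change was 0.90 (adjusted p 0.0873). ICAM1 measured 33.9 and 35.8 TPM against 59.3 and 53.6 TPM, or 0.55 (adjusted p 0.0975). The difference of the 2-CM effect between the transfections was 0.04 for both genes (adjusted p 0.928 for IL6 and 0.871 for ICAM1). NFKB1, a subunit of NF-kB, was instead at 0.09 with depc, with a difference of 0.90 (adjusted p 0.107), and NFKBIZ, an atypical regulator of NF-kB, at 0.18, with a difference of 0.80 (adjusted p 0.107). Over the 8 called members the difference ran from 0.01 for NFKB2 to 0.90 for NFKB1, and it was called for none of them.

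The promoter of CXCL2 is shown because its gene had the largest GC-corrected change among the called NF-kB targets. The 120 bases run from 138 to 19 bases before the RefSeq start (GRCh38.p14, chr4:74099214-74099333, minus strand), and the match to a form of the NF-kB site (GGG, any 2 bases, then TTTCC) is in capitals.

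CXCL2 promoter: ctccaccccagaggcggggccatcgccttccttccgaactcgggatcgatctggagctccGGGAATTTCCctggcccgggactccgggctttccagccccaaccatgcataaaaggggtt

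Searched on both strands in the 250 bases before the start, that motif was found in 12 of 24 promoters of the list, in which a gene can have more than 1 start, in 281 of 15078 promoters of the genes tested (1.86%) and in 608 of 35116 promoters of the whole RefSeq table (1.73%). The list was made of known NF-kB targets, so its share describes the list and not the response.

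Of 17 AP-1 and immediate early genes, 6 were called higher and 0 lower, against the same 3.61% of all genes called higher. The log2 changes given here are GC-corrected, while the TPM are not. EGR1, a zinc finger factor induced within minutes of growth signals, measured 20.7 and 19.1 TPM with DMSO and 45.1 and 43.2 TPM with 2-CM, GC-corrected log2 change 0.79 (SE 0.10, adjusted p 0.00826). JUN, a subunit of AP-1, measured 28.3 and 25.6 TPM against 51.4 and 48.9 TPM, or 0.57 (SE 0.13, adjusted p 0.0351). KLF4, DUSP5, NR4A1 and IER3 were the other members called. The median relative to all genes was 0.18, and over the alternatives 0.06 to 0.70. Such a position was not particular to this list. Relative medians were 0.42 for mitosis genes, 0.38 for genes of cell death, 0.37 for zinc finger genes named ZNF and 0.25 for genes of double-stranded RNA sensing.

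Of 47 interferons and interferon-induced genes, 6 were called higher and 0 lower, against 3.61% and 4.3% of all genes: XAF1, SAMD9, TRIM22, DTX3L, CMPK2 and OAS3. This count was 3 higher and 1 lower without DMSO poly I:C replicate 1, 3 and 0 under median-of-ratios scaling and 2 and 1 with a pseudocount of 0.1. Over 12 settings around the correction OAS3 kept its call in 2, and XAF1 and CMPK2 in 4, and all 3 lost it without DMSO replicate 1. SAMD9, an antiviral factor, measured 8.03 and 3.39 TPM with DMSO and 32.4 and 23.0 TPM with 2-CM, GC-corrected log2 change 0.92 (SE 0.17, adjusted p 0.0212). OAS3, which makes the 2-5A messenger on binding double-stranded RNA, measured 85.8 and 81.2 TPM against 150 and 160 TPM, or 0.53 (SE 0.14, adjusted p 0.0483). IFI44L was at 0.89 after the GC correction and was not called (adjusted p 0.125). The 2 members with the smallest changes were not called either. ISG15, the ubiquitin-like modifier, measured 757 and 1149 TPM against 894 and 1042 TPM, and BST2, which tethers virions, 484 and 617 TPM against 487 and 518 TPM. After the GC correction ISG15 was at -0.15 (adjusted p 0.523) and BST2 at -0.39 (adjusted p 0.0554), and BST2 was below 0 in all 12 settings (-0.51 to -0.20) and called lower in 3. The list median relative to all genes was 0.29, and 0.22 to 0.82 over the alternatives. Its GC-corrected median was 0.22 with depc and 0.26 with poly I:C. Among 11 genes of double-stranded RNA sensing 1 was called higher, too few to set against the 3.61% of all genes. It was IFIH1, which encodes MDA5, with 18.6 and 9.52 TPM against 54.2 and 41.4 TPM, GC-corrected log2 change 0.82 (SE 0.15, adjusted p 0.0205). DDX58 was at 39.6 and 12.9 TPM against 61.7 and 58.7 TPM, and MAVS, their shared adaptor, at 12.07 and 12 TPM against 17.1 and 17.3 TPM. For these NF-kB, AP-1 and interferon-linked genes, no list kept a called gene when DMSO poly I:C replicate 2 was left out or when either 2-CM library was, while without DMSO replicate 1 the NF-kB list kept 6 calls and the AP-1 list 5. Their GC-corrected medians without DMSO replicate 2 were 0.54, 0.44 and 0.24, against 0.54, 0.55 and 0.26 with it.

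Genes of glycolysis and of the hypoxia response lay below the median of all genes. Of 25 tested, 11 were called lower after the GC correction and 0 higher, against 4.3% of all genes called lower. NDRG1, a stress gene induced by hypoxia (chromosome 8, 133237171 to 133302022, minus strand), measured 23.3 and 19.9 TPM with DMSO and 4.87 and 5.73 TPM with 2-CM, GC-corrected log2 change -2.18 (SE 0.25, adjusted p 0.00475). PGK1, phosphoglycerate kinase, measured 342 and 315 TPM against 184 and 184 TPM, or -1.79 (SE 0.28, adjusted p 0.0146). ALDOC, an aldolase, measured 32.3 and 39.3 TPM against 14.3 and 14.5 TPM, or -1.57 (SE 0.18, adjusted p 0.00484). With depc NDRG1 was at 5.71 and 5.83 TPM with DMSO and 6.43 and 5.19 TPM with 2-CM, PGK1 at 189 and 165 TPM against 176 and 149 TPM, and ALDOC at 15.2 and 17.4 TPM against 21.8 and 23.4 TPM. In all 3 genes the DMSO poly I:C libraries were the highest of these 8, and for ALDOC the 2-CM libraries lay above the DMSO libraries with depc. The glycolytic enzymes GAPDH and ENO1 were lower by smaller amounts, with GC-corrected log2 fold changes of -0.96 and -0.95 (adjusted p 0.0391 and 0.0348). VEGFA and SLC2A3 had the 2 largest values before the correction, 0.66 and 0.54, and were not called. The list median relative to all genes was -0.73, and -0.98 to -0.20 over the alternatives. Without DMSO replicate 2 the GC-corrected median was -0.49, against -0.50 with it, and 1 call was left. Without 2-CM replicate 1 there was no call, and without 2-CM replicate 2 there were 2. NDRG1 kept its call in 11 of 12 settings around the correction.

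PGK1 is shown as an example of a promoter of this list, 250 to 131 bases before its RefSeq start (GRCh38.p14, chrX:78103998-78104117, plus strand), with 2 matches to ACGTG, the core of the site bound by hypoxia-inducible factors, in capitals, of which the second reads on the opposite strand.

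PGK1 promoter: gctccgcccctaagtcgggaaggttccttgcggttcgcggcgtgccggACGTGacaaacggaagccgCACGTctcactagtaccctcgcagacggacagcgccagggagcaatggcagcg

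On both strands of the 250 bases before the start, ACGTG was found in 17 of 43 promoters of the list, in 3364 of 15078 promoters of the genes tested (22.3%) and in 6501 of 35116 promoters of the table (18.5%). The list was made of glycolytic genes and known genes of the hypoxia response, so its share describes the list and not the response.

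Nuclear genes of the respiratory chain and ribosomal protein genes were also low relative to all genes. Of 77 nuclear-encoded respiratory chain subunits 24 were called lower and 0 higher after the GC correction, and of 84 cytosolic ribosomal proteins 26 and 0. Of 78 mitochondrial ribosomal proteins 10 were called lower and 0 higher. Of all genes 4.3% were called lower and 3.61% higher. Before the correction the first 2 lists had medians of -0.07 and -0.22, so as groups they lay near 0 in TPM while the median of all genes was 0.63. The medians relative to all genes were -0.69 for the respiratory chain, -0.85 for cytosolic and -0.38 for mitochondrial ribosomal proteins. Over the alternatives they ran from -0.91 to -0.17, from -1.01 to -0.32, and from -0.53 to 0.14, so that of mitochondrial ribosomal proteins changed sign. RPS26, of the small cytosolic subunit, measured 483 and 271 TPM with DMSO and 227 and 174 TPM with 2-CM, GC-corrected log2 change -1.50 (SE 0.23, adjusted p 0.0138). Ribosomal protein genes have many near-identical processed pseudogenes, so single values are uncertain. Without DMSO replicate 2 or either 2-CM library none of these 3 lists held a called gene. Without DMSO replicate 2 the GC-corrected medians were -0.51, -0.58 and -0.23, against -0.57, -0.70 and -0.27 with it.

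Of 30 extracellular matrix and filament genes 5 were called higher and 0 lower after the GC correction, against 3.61% and 4.3% of all genes: FN1, NES, COL1A1, COL3A1 and THBS1. COL3A1, of type III collagen, measured 24.7 and 16.3 TPM with DMSO and 60.1 and 54.6 TPM with 2-CM. Its GC-corrected log2 change was 1.05 (SE 0.24, adjusted p 0.0351), and before the correction it was 1.47 (adjusted p 0.0845). Without DMSO replicate 2 or 2-CM replicate 1 there was 1 call, and without 2-CM replicate 2 there were 2. The list as a whole lay near the other genes, with a median of 0.02 relative to all genes and -0.17 to 0.54 over the alternatives. The summed level of 8 mesenchymal markers, among them COL1A1 and COL3A1, was 665 and 452 TPM in the DMSO libraries and 977 and 956 TPM in the 2-CM libraries. Most of that sum was VIM, at 579 and 401 TPM against 819 and 807 TPM, THY1 was under 0.3 TPM in all 4 libraries, and COL1A2 was listed at 0 in all 4. The part of the mesenchymal markers in the result was not tested.

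**Figure D4:**
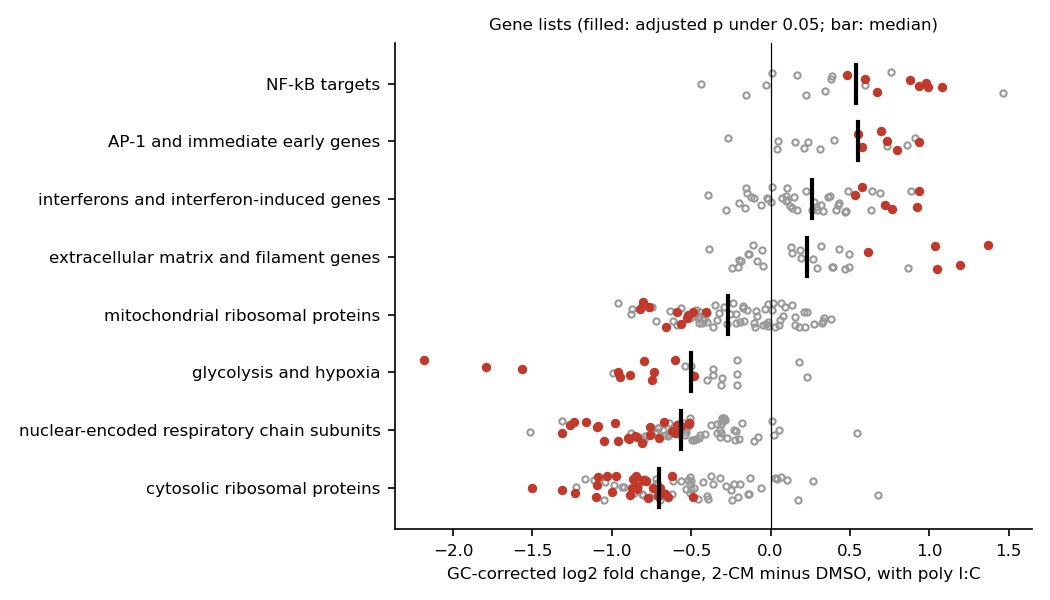
GC-corrected log2 fold change of 2-CM against DMSO with poly I:C (horizontal axis) of each tested member of 8 gene lists, 1 point a gene. Filled points have an adjusted p under 0.05 and bars are medians, which run from 0.55 for immediate early genes and 0.54 for NF-kB targets to -0.70 for cytosolic ribosomal proteins.

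The other lists held few calls after the GC correction, where 3.61% of all genes were called higher and 4.3% lower. Read against those shares, a single call is no result about a list. Of 458 zinc finger genes named ZNF 28 were called higher and 0 lower. Of 20 genes of mitochondrial transcription and RNA handling MTPAP, the mitochondrial poly(A) polymerase, was called higher (0.61, adjusted p 0.0346), and TFAM, which packages mitochondrial DNA, was at 0.625 without a call (adjusted p 0.0508). Of 19 genes of adenosine uptake, phosphorylation and signalling ADORA1, an adenosine receptor, was called higher, at 1.96 and 3.14 TPM against 5.04 and 4.68 TPM. Of 17 paraspeckle and double-stranded RNA-binding genes 3 were called higher, among them NEAT1, the scaffold RNA of paraspeckles, at 44.8 and 30.4 TPM against 142 and 139 TPM. Of 18 p53 targets 3 were called higher and 0 lower, of 21 genes of cell death 1 and 0, of 20 ATF4 targets 1 and 2, of 23 cholesterol genes 1 and 3, of 16 NRF2 targets 1 and 1, of 36 histones 1 and 3, and of 26 host genes of small nucleolar RNAs 1 and 1. Of 16 genes of endoplasmic reticulum stress, 9 mitochondrial chaperones and proteases, 29 DNA replication genes and 17 genes of MHC class I presentation, 0 were called higher and 2, 1, 1 and 1 lower. None of 24 mitosis genes, 6 keratins, 5 genes linked to Sjögren's syndrome and the 2 mitochondrial rRNAs was called in either direction. None of these lists kept a call without DMSO replicate 2 or without either 2-CM library. Leaving out DMSO replicate 1 changed several of them. The adenosine list went to 0 higher and 2 lower, with ADORA1 no longer called, the host genes of small nucleolar RNAs to 3 and 0, the ATF4 targets to 2 and 1, and the paraspeckle list to 2 and 1.

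Across all protein-coding genes, the largest GC-corrected changes included genes outside the lists. They were picked after the data were examined, by size, a mean of 5 TPM or more in the higher group, no shared exonic bases and no overlap between the groups. Only some of the genes so picked are named. SLPI, a secreted protease inhibitor of salivary and other mucosal fluids, measured 17.7 and 20.0 TPM with DMSO and 5.73 and 5.81 TPM with 2-CM, GC-corrected log2 change -1.96 (SE 0.20, adjusted p 0.00409). RARRES2, which encodes the chemoattractant chemerin, measured 57.1 and 82.2 TPM against 20.1 and 17.4 TPM, or -2.02 (SE 0.14, adjusted p 0.00175). MT3, a metallothionein, measured 8.49 and 9.63 TPM against 1.78 and 1.83 TPM, or -2.05 (SE 0.22, adjusted p 0.00409). SLPI, RARRES2 and MT3 kept their calls in all 12 settings around the correction. Other decreases of that size did not: MT1G at -2.10 and CXCR4 at -2.02 were called, but not with the 4 libraries alone. On the other side, TRIB1, a pseudokinase, measured 4.66 and 3.70 TPM against 15.9 and 15.3 TPM, or 1.28 (SE 0.17, adjusted p 0.00845). PLK2, a stress-induced kinase, measured 24.7 and 9.94 TPM against 65.8 and 60.1 TPM, or 1.18 (SE 0.20, adjusted p 0.0162). CCN2, a matrix-associated growth factor, measured 10.8 and 6.69 TPM against 28.2 and 27.9 TPM, or 1.17 (SE 0.21, adjusted p 0.0201). TRIB1, PLK2 and CCN2 lost their calls without DMSO replicate 2 and without either 2-CM library. The fixed rule for named genes also took, to fill its places, 12 genes that were not called in the uncorrected fit, 11 of which share exonic bases with a neighbour, such as ISY1-RAB43 and RAB43. NDRG1 was the exception.

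After the GC correction, very long genes were called lower more often than other genes. Of 385 protein-coding nuclear genes with a genomic span of 300 kb or more, 58 were called lower after the GC correction (15.1%) and 2 higher, against 4.44% lower among all 12442 nuclear protein-coding genes and 8.51% (203 genes) among those under 10 kb. Their median GC-corrected log2 fold change was -0.27, while that of genes of 30 to 100 kb was 0.13 and that of genes under 10 kb -0.09. Before the correction the picture was another: 221 of the 385 genes were separated higher and 30 lower, against 72.3% and 5.94% of all genes. Of the 385, 1 was called lower, against 0.044% of all genes. Their median of 0.54 lay below the 0.89 of genes of 100 to 300 kb but above the 0.26 of genes under 10 kb. Within 3 classes of low, middle and high GC content, the longest genes had GC-corrected medians of -0.37, -0.21 and -0.41. Besides FHIT, the genes called after the correction included FGGY, a carbohydrate kinase, at 13.8 and 12.8 TPM with DMSO and 7.33 and 5.99 TPM with 2-CM, GC-corrected log2 change -1.41 (SE 0.16, adjusted p 0.00444). BABAM2, a subunit of a DNA repair complex with BRCA1, measured 60.9 and 68.2 TPM against 37.0 and 38.1 TPM, or -1.36 (SE 0.25, adjusted p 0.0205). FARS2, the mitochondrial phenylalanyl-tRNA synthetase, measured 16.9 and 18.0 TPM against 9.67 and 9.83 TPM, or -1.20 (SE 0.16, adjusted p 0.00885). In FGGY, BABAM2 and FARS2 both 2-CM libraries lay below both DMSO libraries before any correction, as they did in 26 of the 58 genes. In the other 32 the groups overlapped, and in 16 of these the mean TPM was higher with 2-CM, as in INPP4B (1.72-fold). The median GC-corrected deviation of the longest genes from the mean of the 12 libraries was 0.00 and -0.01 with DMSO poly I:C and -0.29 and -0.28 with 2-CM poly I:C, a difference larger than that between replicates (two-sided exact permutation test, p = 0.333, the smallest possible). Without DMSO replicate 2, 3 of the longest genes were called, and without 2-CM replicates 1 and 2 there were 6 and 7, while a correction of GC content and exonic length together gave 66.

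**Figure D5:**
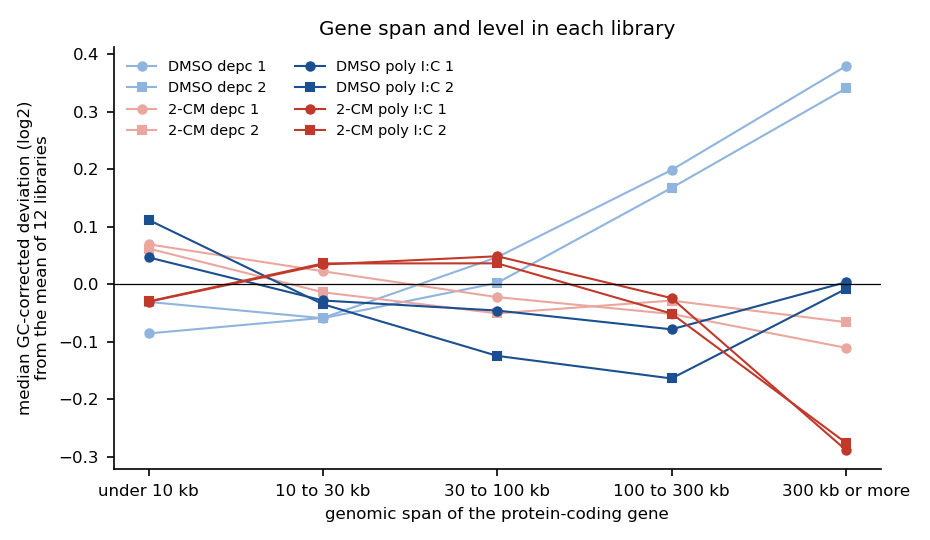
Median GC-corrected deviation from the mean of the 12 libraries (vertical axis, log2) of protein-coding nuclear genes in 5 classes of genomic span (horizontal axis), 1 line a library. In the class of 300 kb or more the 2-CM poly I:C libraries sit at -0.29 and -0.28, and the DMSO depc libraries at 0.38 and 0.34.

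With depc, which shares no library with the comparison, long genes were low with 2-CM as well. The median of the 385 genes was -0.46 after the GC correction, and 25 of the 33 genes called lower in that comparison belonged to them, where 0.208% of all genes were called lower and 0.0189% higher. The 33 calls became 8 with a correction for GC content and length, 7 with a replicate block, 17 without either DMSO poly I:C library and 0 without either 2-CM poly I:C library, which enter that comparison only through the estimate of the spread. Of the 385 genes 14 were called lower in both comparisons, FHIT, SND1, BCAS3, SDK1 and TBC1D22A among them. Across the 385 genes the GC-corrected changes of the 2 comparisons had a Pearson correlation of 0.07, so the sizes of the changes were not alike gene by gene. SND1, a nuclease of the RNA-induced silencing complex, measured 71.8 and 88.7 TPM against 46.7 and 49.1 TPM with poly I:C, and 160 and 173 TPM against 90.1 and 94.1 TPM with depc. SDK1, an adhesion protein of the immunoglobulin family, measured 2.94 and 2.997 TPM against 1.51 and 1.54 TPM, and 7.37 and 7.13 TPM against 2.32 and 2.72 TPM. With depc the span classes of 100 to 300 kb and of 30 to 100 kb were at -0.23 and -0.04, so the median was lower in each longer class, while with poly I:C it was below 0 in the shortest and the longest class.

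The difference of the 2-CM effect between the transfections was tested directly. In the fit without GC correction 2-CM against DMSO with depc called 0 genes with limma (711 at an unadjusted p under 0.05, and 0 calls by voom), and the difference of the effects called 2, AL035461.3 and AC009065.9, both higher with poly I:C and both tested only because of the 2-CM poly I:C libraries. After the GC correction 11 differences were called, 2 upward and 9 downward. With DMSO replicate 2 left out this count was 0, and it was 4 and 3 without 2-CM replicates 1 and 2, 42 without DMSO replicate 1, and 3, none upward, with a correction for GC content and length. A minimum of 5 TPM gave 80 upward and 88 downward, a pseudocount of 0.1 gave 17 and 48, and a GC curve without mitochondrial genes 9 and 17, so neither the count nor its balance was stable. FN1 was among the first, with a difference of 1.27 (SE 0.17, adjusted p 0.0477), its log2 fold change being 1.37 with poly I:C and 0.10 with depc. SLPI and RARRES2 were among the second, at -2.55 (SE 0.29, adjusted p 0.0271) and -1.97 (SE 0.20, adjusted p 0.0253), and so was ALDOC at -1.91 (SE 0.26, adjusted p 0.0490). For MT-TF the difference was 0.06 before the correction and -1.56 after it (adjusted p 0.131), and for MT-ND3 0.02 and -1.67 (adjusted p 0.213), so neither was called and the size depended on the correction.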

How the data were processed

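RNA was measured in 12 libraries of 6 groups with 2 replicates each. Per the submitters' processing notes, reads were made with bcl2fastq 2.20 and aligned with HISAT2 2.1.0 to hg38. Transcripts were then quantified by the authors with StringTie 2.0.4 and GENCODE 32, with no strand option, per the file headers, and the deposited files hold coverage, FPKM and TPM for each transcript and no counts. The count test first planned was therefore replaced. The 3 deposited tables of the authors' comparisons were not used here.

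Transcript TPM were summed per gene, and genes with at least 1 TPM in 2 of the 4 libraries were kept. limma 3.58.1 in R 4.3.3 was fitted to log2(TPM + 1), which understates the change of low genes, with 6 group means over all 12 libraries (eBayes with trend, 6 residual degrees of freedom) and Benjamini-Hochberg adjustment. A gene was called at an adjusted p under 0.05. The GC correction subtracted from each library a natural spline (5 degrees of freedom) of its deviation from the gene mean on the GC content of the gene. Groups were called separated where their values did not overlap. The limma fit was tested on simulated data with independent noise in each gene. That simulation held no difference between replicates shared by genes and did not apply the GC correction, so the GC-corrected calls were not tested by it. Tables were handled in Python 3.11.15 with pandas 2.3.3.

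Named genes were, per direction, the 10 called protein-coding genes with the largest change, a mean of 5 TPM or more and separated groups, filled up with genes not called, then 5 called under every scaling, 3 of other classes, 5 differences between transfections, and from each list all members up to 13 or the 2 largest and 2 smallest. Members and lists were chosen with earlier results of these data known. The text names only part of the genes that the rule took. Of the double-stranded RNA sensing genes, mitochondrial chaperones, keratins and genes linked to Sjögren's syndrome not all are named. Of the immediate early genes only called ones are. Other genes named were picked after their values were seen. Alternatives covered the unit, scaling, filter, pseudocount, GC and length correction, block and each library left out. The deposited coverage corresponds to 3.146 to 4.989 gigabases a library.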

Additional observations from a re-analysis of the deposited data

Results flagged for a closer look

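In the test of the difference of the 2-CM effect between the transfections 2 genes passed the threshold before the GC correction and neither did after it. Both had passed the 1 TPM filter only through the 2-CM poly I:C libraries, so their selection was tied to the difference tested, and their values are a description from which no difference of effect is drawn. For AC009065.9, a small nucleolar RNA gene, the effect with poly I:C minus that with depc was 3.21 on the log2 scale (SE 0.29, adjusted p 0.0151 by limma), and 1.93 after the GC correction (adjusted p 0.0702). For AL035461.3 it was 2.75 (SE 0.17, adjusted p 0.0017 by limma), a fitted value that is no bound since the gene was listed at 0 in both DMSO poly I:C libraries, and after the GC correction 1.06 (adjusted p 0.338). With every gene above 0 TPM in any of the 12 libraries tested, the adjusted p of the difference was 0.0134 for AC009065.9 and 0.000628 for AL035461.3. AL035461.3 entered that test, too, only through the 2-CM poly I:C libraries, the only ones where it was above 0 TPM. Groups listed at 0 throughout also added no spread between replicates to its estimate. Both genes share exonic bases with a neighbour, and the part of that overlap in the difference was not tested.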

How the results depend on the processing

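Of the 18 calls with poly I:C, the number became 6 with upper-quartile scaling, 3 with median-of-ratios scaling, 63 with no filter, 3 at a minimum of 5 TPM, 11 with a pseudocount of 0.1, 5 by voom, 7 without mitochondrial genes, 1258 with the GC correction, 690 with GC and length, 3945 with a covariate of the replicate differences, 3 without the variance trend and 0 with only the 4 libraries. It was 15 by FPKM, and 1 to 4 when a library was left out. The replicate block gave 3 calls, and 1010 with the GC correction. Of the 18 genes 3 kept their calls under the block, FN1, NES and COL1A1 not among them, and 11 under the block with the GC correction, FN1, NES and COL1A1 included. The labels do not say that a number marks a shared culture or day. Deviations of same-numbered libraries correlated at 0.303 between the groups compared and at 0.171 to 0.659 among the DMSO and 2-CM groups. Between those groups and RES depc they correlated at 0.317 to 0.789. Only with RES poly I:C were the correlations negative, at -0.82 to -0.336. Whether the numbers pair the samples was therefore not settled, and the block was kept as an alternative. The 0 calls with depc became 97 with no filter, 5 at 5 TPM, 105 with the covariate and 36 after correction for GC content, and the 2 differences became 55 with no filter, 0 at 5 TPM and 11 after that correction. The 1258 calls became 12 with only the 4 libraries and 20 to 1345 when a library was left out, and the 60 long genes 1 and 3 to 51. The share of mitochondrial mRNAs kept its sign in all 6 alternatives, those that left out a library included. Over the alternatives, 1111 values of named genes kept direction and side of the threshold, 206 lost a call and 175 gained one, with no reversal of sign among called values. The cause of these changes was not tested. With 2 libraries a group, the number of libraries limits precision.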
